A study of Homo sapiens with 3 samples.

Results

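The regions described here are H3K27ac peaks that were called in both BPP-treated and control A2780 cells and that reached the ends of at least 2 protein-coding genes at once. Members were chosen by measured values: a peak of the BPP list on chromosomes 1 to 22 and X had to overlap a CTR peak by 1 bp or more, overlap no IgG peak, and overlap windows of 1 kb on either side of the start or end coordinate of 2 or more different protein-coding genes. The rule took 902 of the 17841 BPP peaks. They touched 1772 of 19974 protein-coding genes, which is 8.87% of all genes and the share against which gene groups are read. Of the members, 853 reached 2 genes, 48 reached 3 genes and 1 reached 4 genes. In 19 members the second gene was only a read-through gene, an annotated transcript that joins neighbouring genes.

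A2780 is a human ovarian carcinoma cell line. Cells of the BPP library were treated with BPP, a peptide described in the design as a competitor for the site at which BIN2 is phosphorylated. CTR was the control with the same H3K27ac antibody. No treatment of the CTR cells is named by the sources used here, and the TAT peptide of the design belongs to RNA-seq. The IgG library served as background, with an antibody against no chromatin target, in the same cell line. Each group had 1 library, so differences between conditions had no replicate check and carry no p-value. The lists held 17841, 14836 and 7701 peaks in BPP, CTR and IgG. The sources used here state no read numbers, and depth is unknown. Shares carry 95% Wilson intervals, medians carry intervals from order statistics and differences of shares carry Newcombe intervals. All of these cover counting error only and treat peaks or genes as independent. The fold and −log10 q of a peak are the authors' values and describe or rank peaks within a list; a difference between the BPP and CTR value at the same place is not read as a change.

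Acetylation of lysine 27 on histone H3 marks nucleosomes beside active promoters and enhancers. Transcription start sites themselves are usually depleted of nucleosomes, so the mark tends to lie on the nucleosomes that flank them. Many human genes are arranged head to head, with starts on opposite strands close together, and such a bidirectional promoter drives a pair of genes from a shared stretch of DNA. Pairs of this kind are known to be common among housekeeping genes, including those for DNA repair and mitochondrial proteins.

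The stretches below lie between or beside the divergent starts of 7 pairs with a member, and not all of them lie inside its peak. The first 4 are the members of highest BPP −log10 q whose starts both lay near the peak, were over 20 bp apart and had their sequence in the table; this choice was made after the values were seen. The last 3 are among the textbook head-to-head pairs that were members. Not every such pair is printed. The 250 bases at PDCD10/SERPINI1, left out here, held none of the motifs searched below and had a GC content of 64.8%. Where starts lay 250 bp apart or less the whole stretch between them is printed, and otherwise the 250 bases before the start of the plus-strand gene. The minus-strand gene is named first. Sequences are RefSeq GRCh38.p14, plus strand, 5′ to 3′, and capitals mark matches on either strand to the 10 motifs searched below, adjoining or overlapping matches running together.
MBTD1/UTP18, chr17:51260296-51260545: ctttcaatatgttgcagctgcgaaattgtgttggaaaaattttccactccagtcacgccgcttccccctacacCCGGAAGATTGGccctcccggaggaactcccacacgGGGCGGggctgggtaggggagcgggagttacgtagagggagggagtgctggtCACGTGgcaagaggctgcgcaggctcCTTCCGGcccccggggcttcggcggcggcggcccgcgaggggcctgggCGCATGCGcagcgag
TADA3/ARPC4, chr3:9792474-9792517: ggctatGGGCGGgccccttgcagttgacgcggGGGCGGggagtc
PPP1R10/MRPS18B, chr6:30617590-30617839: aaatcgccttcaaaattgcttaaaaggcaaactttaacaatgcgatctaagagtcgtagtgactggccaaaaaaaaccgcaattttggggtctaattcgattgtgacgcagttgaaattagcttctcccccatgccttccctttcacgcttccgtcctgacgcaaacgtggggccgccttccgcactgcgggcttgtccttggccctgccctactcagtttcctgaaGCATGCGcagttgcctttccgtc
CMC2/CENPN, chr16:81006964-81007213: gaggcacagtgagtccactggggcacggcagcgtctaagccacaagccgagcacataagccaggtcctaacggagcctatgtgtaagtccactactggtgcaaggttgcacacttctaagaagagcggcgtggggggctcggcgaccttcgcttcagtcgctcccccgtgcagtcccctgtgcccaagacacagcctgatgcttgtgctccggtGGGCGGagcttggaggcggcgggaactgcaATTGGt
SARS2/MRPS12, chr19:38930764-38930943: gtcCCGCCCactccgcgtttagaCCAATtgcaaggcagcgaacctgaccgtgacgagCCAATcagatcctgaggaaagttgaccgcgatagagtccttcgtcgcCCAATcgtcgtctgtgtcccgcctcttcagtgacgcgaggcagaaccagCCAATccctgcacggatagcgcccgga
SIRT3/PSMD13, chr11:236932-236975: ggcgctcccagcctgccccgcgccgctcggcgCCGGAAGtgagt
TCP1/MRPL18, chr6:159789603-159789811: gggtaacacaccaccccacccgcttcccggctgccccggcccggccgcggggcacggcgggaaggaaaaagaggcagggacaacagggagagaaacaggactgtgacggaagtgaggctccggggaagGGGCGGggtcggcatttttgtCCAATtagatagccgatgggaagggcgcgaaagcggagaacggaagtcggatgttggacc

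The stretch at MBTD1/UTP18 held letters of the ETS, NF-Y, SP/KLF, E box and NRF1 motifs, and its GC content was 66.0%. At PPP1R10/MRPS18B the GC content was 50.4% and the only match was the NRF1 core. The 180 bases between SARS2 and MRPS12 held CCAAT at 4 places. The 44 bases between SIRT3 and PSMD13 had a GC content of 79.5% and held the ETS letters. In TADA3/ARPC4 and TCP1/MRPL18 the printed stretch lay outside the BPP peak, which covered only the flank on the side of the plus-strand gene; at MBTD1/UTP18 the peak covered part of it, and in the other 4 pairs it covered the whole stretch.

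Peaks at several gene ends were shared between the lists more often than peaks elsewhere. Outside IgG peaks, 49.5% of all BPP peaks were overlapped by a CTR peak. By the number of gene windows reached, the share was 40.5% (39.7 to 41.4) of 12163 peaks at no gene end, 68.5% (67.1 to 69.9) of 4134 peaks at 1 gene and 74.0% (71.5 to 76.4) of 1219 peaks at 2 or more genes. Starting from CTR peaks, the shares overlapped by BPP were 53.3%, 67.8% and 76.0%. Because the rule used both the overlap and the windows, these shares are a description. In the other direction, 317 BPP peaks reached 2 or more genes and had no CTR overlap, and 12 that met the other conditions were left out for an IgG overlap. IgG peaks rarely had such a place: 50 of 7701 (0.649%, 0.493 to 0.855) reached 2 or more genes, against 6.92% of BPP and 7.97% of CTR peaks.

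At the edges of the rule the members varied in strength (BPP −log10 q in brackets). The smallest overlaps with a CTR peak were 3 bp at TMEM223, TMEM179B and NXF1 (5.49), 7 bp at MAN2C1 and SIN3A (4.78) and 9 bp at DCLRE1A and NHLRC2 (5.31). Just outside, the nearest CTR peak lay 1 bp away at HIRA and MRPL40 (4.93) and 7 bp away at RABL3 and GTF2E1 (4.33). For the second gene window, the least overlap was 1 bp at QRICH1 and QARS1 (23.7), 5 bp at MYO19 and GGNBP2 (5.60) and 6 bp at ZNF544 and ZNF8 (9.83). The CTR −log10 q of these 6 members lay between 4.06 and 30.2 and was above the CTR median of members, 10.99, at MAN2C1/SIN3A (15.98), MYO19/GGNBP2 (16.8) and QRICH1/QARS1. The peak at VPS29 missed the window of RAD9B by 1 bp (4.50), and the peak at AOC2 missed that of PSME3 by 8 bp (8.06). At VPS29/RAD9B and at RABL3/GTF2E1 only the named peak lay outside the rule, and another peak of each pair was a member.

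Members were wider than the other shared peaks and stronger than those at no gene end, while against peaks at 1 gene their strength differed little. Median BPP width was 730 bp (687 to 765) in members, 626 bp (613 to 640) in the 2833 shared peaks at 1 gene and 584 bp (574 to 596) in the 4930 shared peaks at no gene end. A wide peak reaches a second window more readily, so width is not independent of the rule. Median BPP −log10 q was 11.9 (11.3 to 12.5), 11.01 (10.7 to 11.3) and 9.02 (8.84 to 9.20) in that order, so that the intervals of members and of peaks at 1 gene just met. Median BPP fold was 5.20 (5.05 to 5.35) in members and 5.37 (5.31 to 5.45) at 1 gene, intervals that overlap, and 4.43 (4.38 to 4.47) at no gene end. The CTR peaks under them followed the same order, with median widths of 772, 681 and 549 bp and median folds of 5.31, 5.51 and 4.42. The 30% of BPP peaks with the highest −log10 q held 64.2% (61.0 to 67.3) of members and 58.5% (56.7 to 60.3) of the shared peaks at 1 gene.

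**Figure D1:**
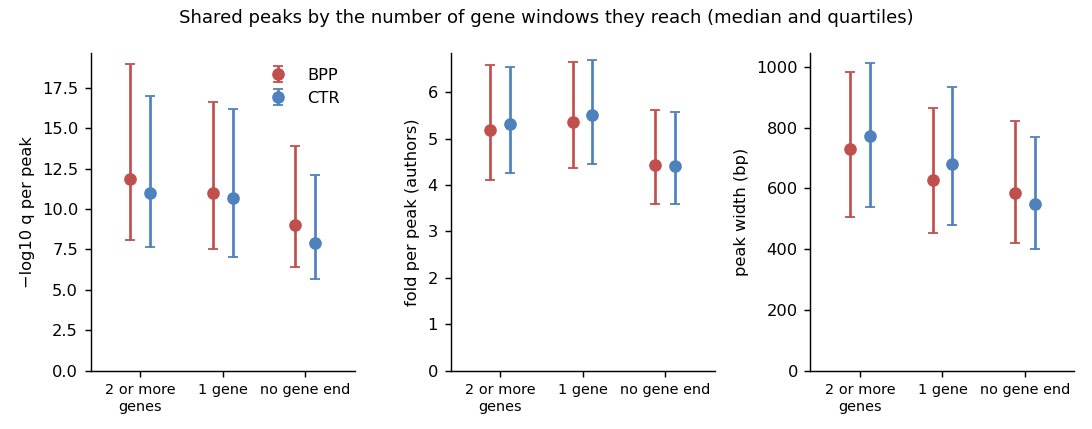
Median (points) and quartiles (bars) of −log10 q, fold and width in bp for shared peaks in the BPP (red) and CTR (blue) lists, split by whether the peak reached 2 or more genes (902 members), 1 gene (2833) or no gene end (4930). Members were widest, and their fold was close to that of peaks at 1 gene.

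In position the BPP member and its CTR counterpart mostly covered the same ground. A single CTR peak lay under 888 of 902 members, and 14 members overlapped 2 or more. The shared stretch was 67.1% (64.9 to 69.3) of the union of both peaks in the median, against 64.0% (62.9 to 65.2) at 1 gene. Overlap reached at least 50% of each peak in 673 members (74.6%, 71.7 to 77.3), about the share at 1 gene (74.1%, 72.4 to 75.7). Summits lay a median of 120 bp (105 to 133) apart in members and 131 bp (126 to 141) at 1 gene. The BPP summit fell inside the CTR peak in 91.7% (89.7 to 93.3) of members and 88.0% (86.8 to 89.1) of peaks at 1 gene.

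The members of highest BPP −log10 q are named next, and the functions of their genes were not compared with those of weaker members. The highest −log10 q belonged to the member at SNX8, a sorting nexin, and EIF3B, a subunit of translation initiation factor eIF3 (chr7:2353941-2354836). It had a −log10 q of 286.6 in BPP and 208.9 in CTR, and both summits fell on the same base. At UFD1, a cofactor in the degradation of ER proteins, and CDC45, part of the replicative helicase (chr22:19479190-19479814), BPP had 158.0, CTR had 144.4 and the summits lay 1 bp apart. The member at CDC25C, a phosphatase that activates CDK1 at mitosis, and FAM53C (chr5:138337577-138338360) had 153.0 and 136.8. All of these had no IgG overlap, as the rule required.

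The largest fold of any member, 15.9 in BPP and 14.7 in CTR, was at MBTD1, a chromatin reader, and UTP18, an rRNA processing factor (chr17:51260080-51260423). TADA3, an adaptor of the SAGA and ATAC acetyltransferase complexes, and ARPC4, a subunit of the Arp2/3 complex, had a member (chr3:9792560-9793462) with −log10 q of 122.6 and 99.2. PPP1R10, a nuclear regulator of protein phosphatase 1, and the mitochondrial ribosomal gene MRPS18B (chr6:30616955-30618034) had 120.1 and 78.6. At CMC2, an assembly factor of cytochrome c oxidase, and CENPN, a centromere protein (chr16:81006923-81007709), they were 119.0 and 82.5, with summits 1 bp apart. Another 5 members of high BPP −log10 q were UROS, an enzyme of haem synthesis, with BCCIP (126.9), RHBDD3 with EWSR1, an RNA-binding protein (114.5), ALG2, a mannosyltransferase, with the translocon subunit SEC61B (110.2), FAM227A with CBY1 (107.9), and EXOSC5, a subunit of the RNA exosome, with BCKDHA (98.5). The CTR −log10 q of these 5 lay between 69.9 and 114.1.

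At the other end, the lowest BPP −log10 q was 3.06 at LBHD1 and UQCC3, the latter an assembly factor of respiratory complex III, where CTR had 5.10. MINDY1, a deubiquitinase, with PRUNE1 had 3.07 and 8.68. ITGB1BP1 with CPSF3, the endonuclease that cleaves pre-mRNA before polyadenylation, had 3.11 and 7.54, and ADAT2, a tRNA deaminase, with PEX3, a peroxisome biogenesis factor, had 3.12 and 7.21. The member over most genes lay at POC1B and GALNT4 (chr12:89525642-89525969), where 2 of the 4 genes were read-through genes, with −log10 q of 7.45 and 11.1. The member of greatest width, 2515 bp, spanned the histone genes H2AC15 and H2BC15 (chr6:27836719-27839233), and the next, 2206 bp, lay at CD27 and TAPBPL (chr12:6450851-6453056).

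Most members of known orientation lay near the starts of genes transcribed away from each other. For this class a start is the outer end of the gene. The peak had only to lie within 1 kb of both starts and not between them. Strand came from the RefSeq promoter table, which held 1559 of the 1772 genes, and 729 members could be classified. Of these, 569 (78.1%, 74.9 to 80.9) lay at divergent starts, 110 (15.1%, 12.7 to 17.9) at a start and the end of another gene, 41 (5.62%, 4.17 to 7.54) at starts on the same strand and 9 (1.23%, 0.651 to 2.33) where only transcript ends met. Median BPP fold was 5.57 (5.38 to 5.79) at divergent starts, 4.99 (4.40 to 5.64) at starts on the same strand, 4.26 (3.97 to 4.66) at a start with an end and 2.95 (2.63 to 3.46) at transcript ends. The 9 members at transcript ends had BPP −log10 q from 3.43 at LIN7B/C19orf73 to 9.47 at PPFIA3/HRC, and included TPI1, a glycolytic enzyme, with SPSB2 (5.54) and PLCB3 with BAD, a promoter of apoptosis (4.46). CTR values of these 9 lay between 3.85 and 7.73.

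Read against all gene pairs, orientation separated the pairs strongly. The table held 3428 pairs of genes with ends no more than 2 kb apart, and 742 of them (21.6%) had 1 member over both ends. That was the case for 562 of 1183 divergent pairs (47.5%, 44.7 to 50.4), 28 of 82 pairs of starts on the same strand (34.1%, 24.8 to 44.9), 133 of 922 pairs of a start and an end (14.4%, 12.3 to 16.8) and 19 of 1241 pairs of transcript ends (1.53%, 0.982 to 2.38). Divergent pairs exceeded pairs of transcript ends by 46.0 percentage points (43.0 to 48.9), pairs of a start and an end by 33.1 (29.4 to 36.6) and same-strand starts by 13.4 (2.23 to 23.1). The same order held in each H3K27ac list taken alone: a peak lay over both ends of 56.2% of divergent pairs in BPP and 59.6% in CTR, and of 5.16% and 2.26% of pairs of transcript ends. IgG had 1.61% and 0.242%.

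The lists did not lean the same way in every orientation. Of divergent pairs, 93 had a peak over both ends in the BPP list alone and 133 in the CTR list alone. For pairs of a start and an end the counts were 74 and 46, and for pairs of transcript ends 49 and 13. With 1 library per group and unknown depth, a lean of the lists cannot be told apart from a difference between libraries.

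**Figure D2:**
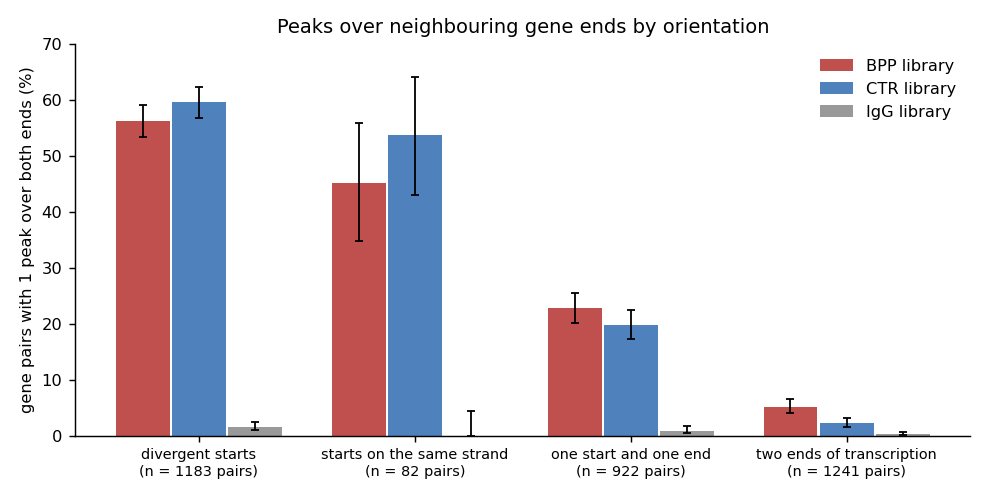
Share of gene pairs with ends within 2 kb that had 1 peak over both ends (bars, with 95% Wilson intervals) in the BPP, CTR and IgG lists, by orientation of the genes. Both H3K27ac lists marked over 50% of the divergent pairs and IgG marked under 2% in every orientation.

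A start that faced a divergent neighbour was more often at a shared peak than a lone start, at every level of promoter GC. Of 2344 divergent starts, 48.5% (46.4 to 50.5) had a shared peak free of IgG within 1 kb, against 17.7% (17.1 to 18.4) of 11945 lone starts, a difference of 30.7 percentage points (28.6 to 32.9). A window at a divergent start also takes in the neighbour's start, so a peak of either gene counts. Where promoter GC was at most 57.7%, the shares were 54.8% and 11.5%. Between that and 67.7% GC they were 57.4% and 26.3%, and above it 32.3% and 16.9%. The gap was thus 43.3 percentage points (39.1 to 47.6) at low GC and 15.4 (11.95 to 18.9) at high GC.

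GC also went with the lists. At divergent starts of high GC, BPP had a peak at 40.3% (36.9 to 43.7) and CTR at 50.3% (46.8 to 53.8), whereas at low GC the shares were 66.8% (62.8 to 70.7) and 64.7% (60.6 to 68.5). Promoters of divergent pairs marked in CTR only had a median GC of 67.7% (66.7 to 68.7), against 63.0% (62.0 to 64.3) for BPP only, 62.7% (62.0 to 63.0) for pairs marked in both lists and 66.7% (66.0 to 67.7) for pairs marked in neither. The part of library GC content in the difference between the lists was not tested.

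Spacing was read only in the 489 of 569 divergent members where both starts of the table lay within 1 kb of the peak. That condition keeps the starts close, so a short spacing is partly set by it. In members left out the starts can lie far apart, such as 40386 bp at SNX8 and EIF3B. The starts did not overlap in 407 of the 489, where the spacing had a median of 224 bp (202 to 235) and quartiles of 112.5 and 356 bp. In 82 the transcribed parts overlapped. The BPP peak contained both starts in 243 members (49.7%), 1 start in 141 and neither in 105. The closest starts were 4 bp apart at BBIP1, a subunit of the BBSome, and SHOC2, a scaffold of RAS signalling (chr10:110918655-110919377), where −log10 q was 18.3 in BPP and 18.5 in CTR. Starts were 11 bp apart at SDF2 and SUPT6H, a histone chaperone of elongating polymerase, 18 bp at SENP1, a SUMO protease, and PFKM, a phosphofructokinase, 25 bp at HIGD2B and BBS4, and 27 bp at both KDM5A/CCDC77 and FNBP1/GPR107. All divergent pairs within 2 kb had about the same spacing, with a median of 215 bp (196 to 227).

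By spacing, the share of divergent pairs with a member over both ends was highest at 251 to 500 bp, with 57.8% (50.8 to 64.4) of 199 pairs. It was 47.4% (40.2 to 54.8) at 1 to 100 bp, 49.4% (43.9 to 54.9) at 101 to 250 bp, 49.4% (38.6 to 60.2) at 501 to 1000 bp and 31.6% (21.004 to 44.5) at 1001 to 2000 bp. Intervals of neighbouring classes overlapped. At 251 to 500 bp BPP and CTR each had a peak over both ends of 135 pairs, of which 17 were marked in BPP only and another 17 in CTR only. At 1 to 100 bp, 15 pairs were marked by BPP alone and 23 by CTR alone, and at 101 to 250 bp these numbers were 22 and 36.

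Where the summit fell differed with the spacing of the starts. In pairs spaced 1 to 250 bp, the summit lay between the starts in only 15 of 240 members (6.25%, 3.82 to 10.1) in BPP, and in 15 of 240 in CTR as well. Above 250 bp it lay between them in 91 of 167 members (54.5%, 46.9 to 61.9) in BPP and 87 (52.1%, 44.6 to 59.5) in CTR. The boundaries of spacing were chosen after the values were seen. In finer steps the BPP share was 5.95% at 1 to 100 bp, 3.77% at 101 to 150 bp, 2.22% at 151 to 200 bp, 12.1% at 201 to 250 bp, 30.8% at 251 to 300 bp, 57.5% at 301 to 400 bp and 64.7% at 401 to 600 bp. In CTR the same steps gave 2.38%, 3.77%, 4.44%, 15.5%, 35.9%, 55% and 58.8%.

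A short stretch between starts offers little room for a summit, so the share of the peak's own length that lay between the starts was taken beside it. That share had a median of 11.4% at 101 to 150 bp, 16.3% at 151 to 200 bp and 21.8% at 201 to 250 bp, each above the share of BPP summits found there. At 251 to 300 bp it was 21.4%, at 301 to 400 bp 35.4% and at 401 to 600 bp 49.6%, each below the share of summits. It fell outside the interval of the BPP summit share at 151 to 200, 301 to 400 and 401 to 600 bp, and inside it in the other steps. At 1 to 100 bp it was 4.31%, and above 600 bp it was 64.9% beside 62.2% of summits. Over all 240 members spaced 1 to 250 bp, the median share of the BPP peak was 10.4% (8.45 to 12.9). That lay just outside the interval of the 6.25% of summits (3.82 to 10.1), though the intervals overlapped. Among members spaced 1 to 250 bp whose BPP peak contained both starts, 14 of 140 summits (10.0%, 6.05 to 16.1) lay between them. A median of 15.2% (13.4 to 16.9) of the peak did, a difference within the counting error.

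**Figure D3:**
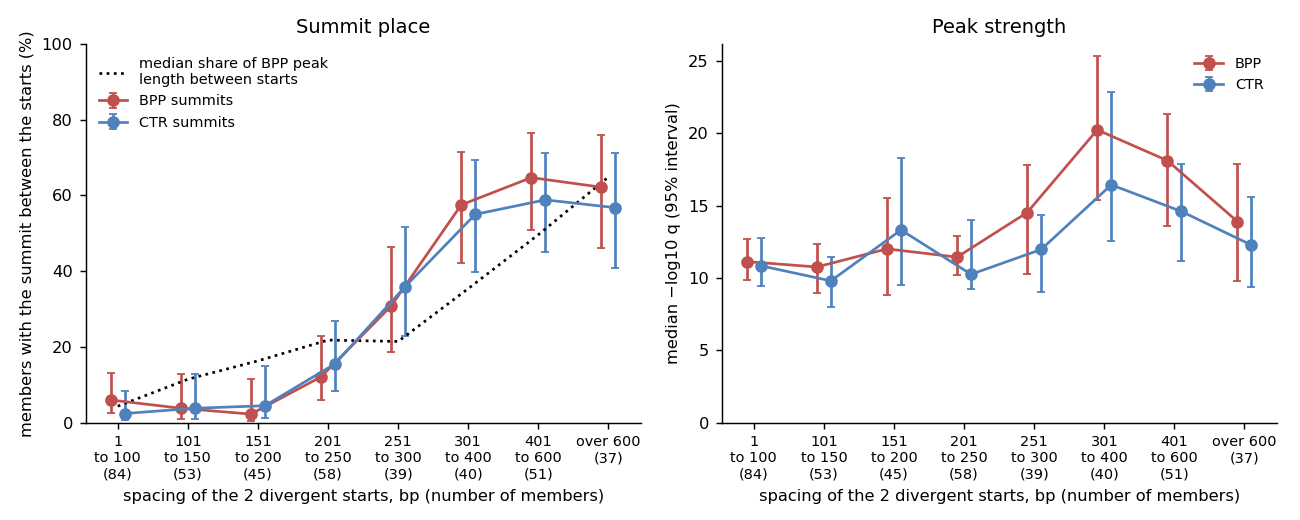
Left, share of divergent members with the summit between the starts (points, 95% Wilson intervals) by spacing of the starts in bp, with the median share of BPP peak length between the starts as a dotted line; right, median −log10 q with its 95% interval. Summits were rare between starts up to 200 bp apart and common from 301 bp on, in BPP (red) and CTR (blue) alike.

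When the summit was outside, it tended to be on the same flank in both libraries. Both summits lay outside in 279 of the 407 members, and on the same side in 226 of these (81%, 76.0 to 85.2), with 112 on the side of the minus-strand gene and 114 on that of the plus-strand gene. Over the 3 possible places, the summits agreed in 306 of 407 members (75.2%, 70.8 to 79.1). Part of this agreement is set by the rule, which asked that the BPP and CTR peaks overlap. The BPP peak contained both starts in only 243 of 489 divergent members, and overlapping peaks on 1 flank have both summits there. At TADA3/ARPC4, with starts 45 bp apart, both summits lay on the side of ARPC4. At CMC2/CENPN, spaced 329 bp, at PPP1R10/MRPS18B, spaced 597 bp, and at ALG2/SEC61B, spaced 340 bp, both lay between the starts. Summits of shared peaks at 1 gene lay at or after the start in 62.3% (60.2 to 64.3) in BPP and 66.1% (64.0 to 68.0) in CTR. The BPP summit was a median of 172 bp (156 to 187) from the nearest start in divergent members and 271.5 bp (255 to 290) from the start at 1 gene; a divergent pair offers 2 starts from which the nearer is taken.

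**Figure D4:**
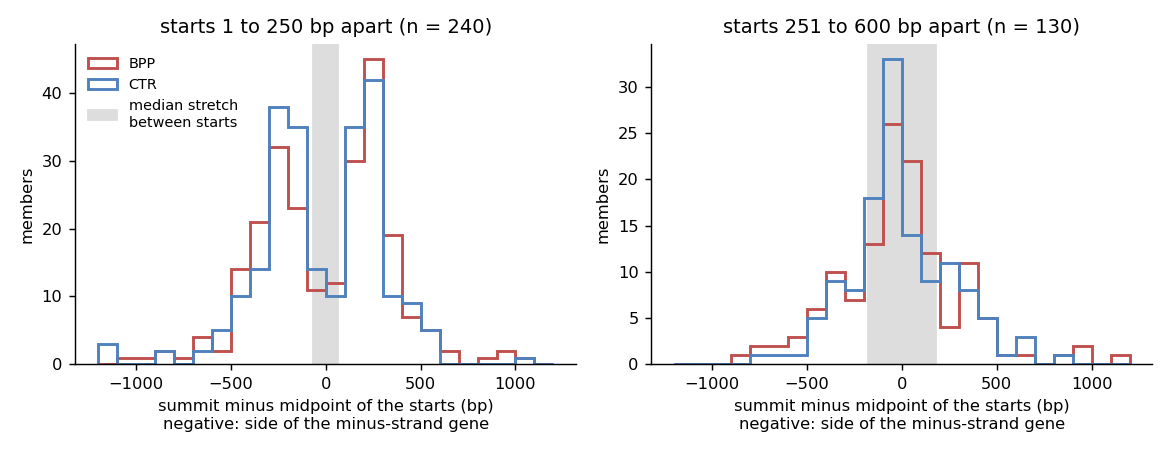
Number of divergent members by summit position in bp relative to the midpoint of the starts, in classes of 100 bp, for pairs spaced 1 to 250 bp (n = 240) and 251 to 600 bp (n = 130), in BPP (red) and CTR (blue); the grey band is the median stretch between starts, and summits beyond 1200 bp are not drawn. The closely spaced pairs had a mode on each flank, and the widely spaced pairs had 1 mode near the midpoint.

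Peaks were also strongest at intermediate spacing. Median BPP −log10 q was 11.1 (9.88 to 12.7) at 1 to 100 bp and 11.4 (10.2 to 12.9) at 201 to 250 bp, then 20.2 (15.4 to 25.3) at 301 to 400 bp and 18.1 (13.6 to 21.4) at 401 to 600 bp, and 13.9 (9.77 to 17.9) above 600 bp. CTR had 10.8, 10.3, 16.4, 14.6 and 12.3, with intervals that overlapped between neighbouring steps. Within 251 to 600 bp, the 68 members with the BPP summit between the starts had a median of 21.1 (17.6 to 27.2), and the 62 with it outside had 13.1 (10.1 to 16.2). In CTR these were 18.6 (14.6 to 24.6) for 66 members and 11.7 (9.42 to 13.1) for 64. Of the 68, 56 had the CTR summit between the starts too. Of the 50 members of highest BPP −log10 q among these 407, 29 had the summit between the starts, against 9 of the 50 of lowest. In CTR the counts were 27 and 11. Spacing alone gave like counts. Starts lay 251 to 600 bp apart in 29 of the 50 highest and 9 of the 50 lowest in BPP, and in 28 and 10 in CTR.

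Promoters of divergent members were no richer in GC than promoters at large but held some motifs more often. Median GC was 62.7% (62.0 to 63.0) in the 1108 promoters of divergent members and 62.7% in all 15812 promoters of the table, and the ratio of observed to expected CpG was 0.851 (0.838 to 0.860) against 0.763 (0.758 to 0.768). Each promoter spans 250 bases before the start and 50 from it on, and the promoters of a pair can share bases. The member promoters come from all 569 divergent members, and not only from the 489 with both starts within 1 kb of the peak. Some of these promoters therefore lie far from the member. The ETS letters CCGGAAG, on either strand, occurred in 29.2% (26.6 to 32.0) of divergent member promoters and 24.2% (22.5 to 26.0) of promoters at shared peaks of 1 gene. They occurred in 17.6% (15.1 to 20.5) of promoters of divergent pairs where neither list had 1 peak over both ends, and in 14.2% of all promoters. Such pairs are called unmarked here, though a peak could still reach 1 of their genes. The excess was 11.6 percentage points (7.78 to 15.4) over unmarked divergent pairs and 5.03 (1.85 to 8.29) over peaks at 1 gene. Unmarked divergent promoters had a higher median GC, 66.7% (66.0 to 67.7), and its part in these differences was not tested.

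TCGCGAGA, the element bound by ZBTB33, was found in 4.15% (3.13 to 5.49) of divergent member promoters and 1.04% (0.529 to 2.04) of unmarked divergent pairs, with 4.07% at 1 gene and 1.74% in all promoters. ACTACAA, the ZNF143 letters, were in 5.87% and 5.22% of marked and unmarked divergent promoters, against 3.57% at 1 gene and 3.15% in all. CCAAT, bound by NF-Y, was in 41.3% of member promoters and 35.9% of unmarked ones, a difference of 5.48 points (0.992 to 9.90). TGACGTCA, the cAMP response element, was in 3.52% and 1.96% (difference 1.56, 0.00684 to 3.04), with 2.59% in all promoters. TATAAA was scarce at members, 4.51% (3.44 to 5.90), and at unmarked divergent pairs, 4.56%, against 9.64% of all promoters. For GCATGCG (NRF1 core; 8.39% and 6.52%, all 5.14%), GGGCGG (SP/KLF; 67.2% and 70.4%, all 58.5%), AAGATGG (YY1; 10.4% and 8.60%, all 6.40%) and CACGTG (E box; 10.6% and 10.6%, all 8.87%) the interval of the difference between marked and unmarked divergent pairs included 0. These are letter matches and not binding sites.

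Gene groups with basic cell functions were found at members more often than the 8.87% of all protein-coding genes, while for chromatin regulators, signalling and developmental factors the interval included that share. Over the 13 lists, 170 of 781 genes (21.8%, 19.01 to 24.8) had a member at an end. Either end of the gene counts, so a listed gene can be reached at its transcript end alone. A gene also has to be marked at all, so the share was taken a second time among the genes with any shared peak at an end, of which 1772 of 4460 (39.7%) over all genes had that peak as a member. Over the lists this share was 45.5% (40.5 to 50.5). Lists were chosen with earlier results of these data known, and the counts are a description.

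Replication-dependent histones, the genes that package newly made DNA, had the highest share, with 25 of 63 genes (39.7%, 28.5 to 52.0) at 13 members. Of the 36 with any shared peak, 69.4% (53.1 to 82.0) had a member. Some members lay at H2A and H2B genes with divergent starts, such as H2AC15/H2BC15, spaced 194 bp (−log10 q 20.3 in BPP, 20.97 in CTR), and H2AC14/H2BC14, spaced 245 bp (11.4 and 11.9). At both of these pairs the BPP and CTR summits lay outside the starts. Others lay at starts on the same strand, as on chromosome 1 at H2AC19/H3C15 (22.9 and 15.2) and H3C14/H2AC18 (20.6 and 17.1). Folds of the 13 histone members were low, from 3.17 at H2BC13/H2AC13 to 5.62 at H3C1/H4C1 in BPP. With a fold of at least 5 asked for in both lists no histone gene was left (0%, up to 5.75%), below the 4.14% of all genes in that setting. Histone genes are near-identical copies in clusters, and the sources used here do not state how reads matching several places were handled. These values are therefore uncertain.

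DNA repair genes had 22 of 84 at a member (26.2%, 17.98 to 36.5), and 66.7% (49.6 to 80.2) of the 33 with any shared peak. APEX1, the main abasic site endonuclease, shared a member with OSGEP (chr14:20454640-20455532), with −log10 q of 72.7 in BPP and 29.4 in CTR. ERCC1, a subunit of the excision repair nuclease, lay under a member with PPP1R13L and POLR1G (39.0 and 23.7). FEN1, the flap endonuclease, with TMEM258 had 21.4 and 27.7, and FANCF, of the Fanconi anaemia core complex, with GAS2 had 20.5 and 17.6. In DNA replication and cell cycle, 13 of 79 genes (16.5%, 9.88 to 26.1) had a member, among them the origin recognition genes ORC6 with VPS35 (30.5 and 29.1) and ORC3 with the tRNA synthetase RARS2 (17.5 and 7.39), besides CDC45 and CDC25C above.

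Genes of mitochondria were also frequent. Of mitochondrial ribosomal proteins 21 of 78 (26.9%, 18.3 to 37.7) had a member, 47.7% (33.8 to 62.1) of those with any shared peak. DAP3, a small-subunit protein, with YY1AP1 had −log10 q of 81.1 in BPP and 98.3 in CTR, MRPS7 with GGA3 had 64.5 and 44.9, and MRPL46 and MRPS11, both of the list, faced each other across 320 bp (27.2 and 12.2). Of oxidative phosphorylation genes 19 of 75 (25.3%, 16.9 to 36.2) had a member, 55.9% (39.5 to 71.1) of those with any shared peak. The complex I gene NDUFB1 with CPSF2 had 90.2 and 105.3, the complex III gene UQCRH with LRRC41 had 48.3 and 31.0, and ATP5PF, of ATP synthase, with GABPA, itself an ETS factor, had 30.2 and 15.6.

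Protein synthesis and folding gave similar shares. Aminoacyl-tRNA synthetases had 11 of 41 genes (26.8%, 15.7 to 41.9), including AIMP1, a scaffold of the synthetase complex, with TBCK (41.4 in BPP, 46.6 in CTR), and YARS1 with S100PBP (30.6 and 9.94). Chaperones had 17 of 68 (25%, 16.2 to 36.4), with the chaperonin subunits CCT4 beside COMMD1 (40.3 and 45.1) and CCT3 beside TSACC (36.5 and 19.4). Cytosolic ribosomal proteins had 17 of 78 (21.8%, 14.1 to 32.2; with a fold of at least 5, 7.69%, 3.57 to 15.8, beside 4.14% of all genes), such as RPL5 with DIPK1A (25.7 and 33.2), RPL9 with LIAS (25.5 and 14) and RPS25 with TRAPPC4 (23.1 and 16.3). The proteasome had 10 of 48 (20.8%, 11.7 to 34.3), such as PSMC5 with FTSJ3 (27.2 and 16.9) and PSMA2 with MRPL32 (14.4 and 9.92). Among genes with any shared peak, the shares for chaperones (41.5%), cytosolic ribosomal proteins (36.2%), aminoacyl-tRNA synthetases (42.3%) and the proteasome (28.6%) had intervals that included the 39.7% of all genes, and so did those of oxidative phosphorylation, mitochondrial ribosomal proteins and replication and cell cycle (43.3%).

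In groups closer to the subject of the study, the interval of the share of all listed genes included the 8.87% of the background. Histone deacetylases and co-repressors had 6 of 49 genes at a member (12.2%, 5.73 to 24.2), among them RBBP4, a histone-binding subunit, with ZBTB8OS (22.1 in BPP, 29.0 in CTR) and MTA2 with TUT1 (15.3 and 4.85). MTA2 also had a separate member with EML3 (8.67 and 10.8). Acetyltransferases and bromodomain readers had 3 of 31 (9.68%, 3.35 to 24.9): TADA3, KAT7 with FAM117A (10.7 and 9.49) and BRD8 with KIF20A (8.43 and 10.96). The mTOR and S6 kinase pathway had 5 of 48 (10.4%, 4.53 to 22.2), namely AKT1S1 with TBC1D17 (44.7 and 27.2), TSC1 with GFI1B (23.5 and 17.2), SESN1 with CEP57L1 (9.50 and 12.5), NPRL3 with MPG (4.79 and 6.73), and RPS6KB1, which encodes the kinase of ribosomal protein S6, with TUBD1 (6.76 and 22.4; chr17:59892847-59893493). The members at MTA2 each lay at a start and the end of another gene, and the member at NPRL3 and MPG lay where only transcript ends met. Developmental and tissue identity factors had 1 of 40 (2.5%, 0.443 to 12.9), FOXL2, a transcription factor of the ovary, with FOXL2NB (16.04 and 16.4). Among genes with any shared peak, the shares were 6 of 13 (46.2%, 23.2 to 70.9) for histone deacetylases and co-repressors, 3 of 14 (21.4%, 7.57 to 47.6) for acetyltransferases and readers, 5 of 19 (26.3%, 11.8 to 48.8) for mTOR and S6 kinase and 1 of 3 (33.3%, 6.15 to 79.2) for developmental factors. These intervals included the 39.7% of all such genes, as did those of the groups above other than histones and DNA repair.

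**Figure D5:**
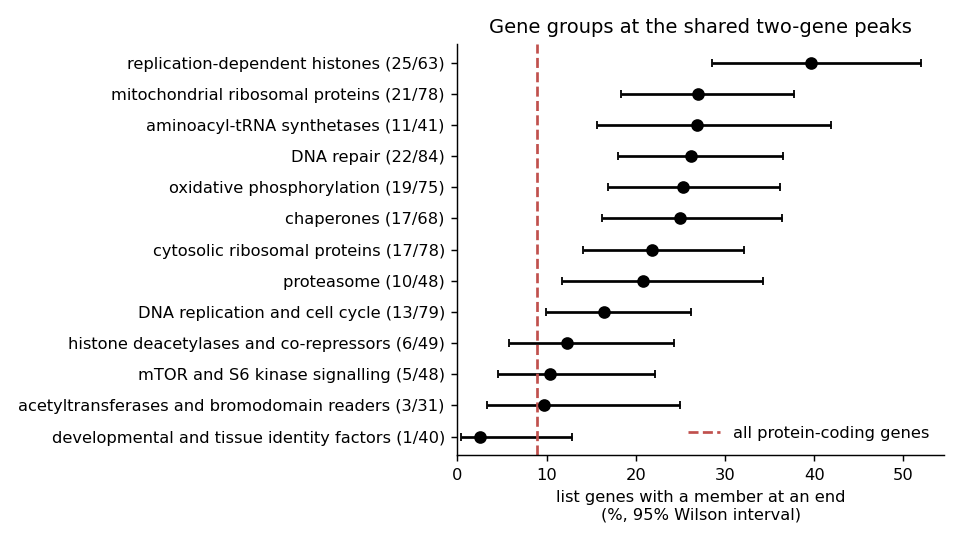
Share of the genes of each list that had a member at an end (points, 95% Wilson intervals; counts in brackets), beside the 8.87% of all protein-coding genes (dashed line). The intervals of 9 lists lay above the line and those of the other 4 included it.

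Textbook head-to-head pairs were not all marked. Of 19 such pairs, leaving aside 3 known from earlier results, 6 had a member, 3 had a peak over both genes in BPP only, 4 in CTR only and 5 in neither list, and 1 had peaks in both lists but an IgG peak as well. PDCD10 and SERPINI1 had −log10 q of 32.5 in BPP and 12.8 in CTR (chr3:167734299-167735458). MRPS12 and SARS2 had 14.2 and 15.3 (chr19:38930495-38931323), SIRT3 and PSMD13 12.7 and 11.7 (chr11:236594-237346), and TCP1 and MRPL18 11.4 and 16.7 (chr6:159789896-159790942). The mitochondrial chaperonin pair HSPD1 and HSPE1 and the pair COX4I1 and EMC8 had a peak in CTR only, and so did TRMT2A and RANBP1. TK1 and AFMID had one in BPP only, as did HARS1 and HARS2, where IgG had a peak too. The collagen pair COL4A1 and COL4A2, the sterol transporter pair ABCG5 and ABCG8 and the pair SURF1 and SURF2 had none in either list, and PPAT and PAICS had none that reached both genes. A peak just under the caller's threshold would not be listed.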

How the data were processed

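The data were peak lists from H3K27ac CUT&Tag of BPP-treated and control A2780 cells and from an IgG library, 1 library per group, grouped by sample title. Per the labels' protocols the cells had been frozen, and a CUT&Tag kit was applied after thawing. The submitters' processing notes name fastp, Bowtie2 2.4.1, deepTools 3.3.0 and GRCh38.p13 (hg38). No source used here names the peak caller or says whether IgG was its control. Lists were deposited for each library, with no pooling. The fold that the authors deposited is a ratio whose background is undescribed. The −log10 p and −log10 q are the authors' caller's values, and the least −log10 p was 5.01. A score that the authors deposited repeats the −log10 p and was not used. Positions came from the authors' starts, ends and summit offsets and are counted from 1.

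Overlap was called from 1 bp. Genes came from the RefSeq gene table, and strands, starts and promoters from the RefSeq promoter table, both GRCh38.p14, whose chromosome coordinates are those of patch 13. Pairs were taken by their closest ends, with read-through genes left out. Overlaps were checked against bedtools 2.31.1, with identical counts, and tested on simulated data. Computing used numpy 2.4.6, scipy 1.17.1, pandas 2.3.3 and matplotlib 3.10.9 in Python 3.11.15. With 1 library per group there was no test, and 95% intervals cover counting error only. Members and lists were chosen with earlier results of these data known. Named are the 12 members of highest and 5 of lowest BPP −log10 q, those over most genes, the widest, those with the closest starts, those at the edges of the rule, up to 4 members per list and textbook pairs. Members under placeholder symbols were skipped, other names were chosen after their values were seen, and some genes within the rule are not reported here. Alternatives were windows of 500 bp and 2 kb, a 50% overlap, stricter −log10 q and fold, the 5000 strongest peaks, IgG overlap allowed, starting from CTR and, added after seeing the data, no read-through genes.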

Additional observations from a re-analysis of the deposited data

How the results depend on the processing

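No paired analysis was possible because each group had 1 library. There were 9 alternatives. Members numbered 406 with a fold of at least 5 in both lists and 423 among the 5000 strongest peaks of each, and the other 7 alternatives gave between 673 and 1095. With fold of at least 5, the top 5000 peaks, 50% overlap, 2 kb and 500 bp in that order, the list genes at a member came to 9.99%, 11.5%, 17.2%, 26.9% and 18.4%, and transcript-end pairs with a member to 0.0806%, 0.403%, 0.967%, 3.22% and 0.564%. Divergent pairs with a member came to 25.4% with fold of at least 5, 25.02% in the top 5000, 36.5% at 50% overlap, 43.4% with −log10 q of at least 5 and 43.3% with 500 bp. The divergent share of members was 88.2% with fold of at least 5, 82.8% in the top 5000, 69.5% with 2 kb and 82.4% with 500 bp. Overlap of the union was 73.3% with fold of at least 5, 74.0% in the top 5000 and 74.4% at 50% overlap. The share overlapped by CTR was 55.2% at 50% overlap, 67.7% with 2 kb and 79.2% with 500 bp. Median −log10 q was 18.1 with fold of at least 5, 19.4 in the top 5000, 13.4 at 50% overlap, 12.9 with −log10 q of at least 5, 12.6 with 500 bp and 10.9 from CTR. Stricter thresholds leave fewer peaks by construction. Between starts 1 to 250 bp apart, the share of summits lay between 5.21% and 7.61% under all alternatives. Set against all genes in the same setting, 7 lists kept their interval above that share in every setting. With fold of at least 5 (all genes 4.14%) the histone list fell below it, at 0%, and the interval of cytosolic ribosomal proteins (7.69%, 3.57 to 15.8) included it. At 50% overlap (all genes 6.80%) histone deacetylases and co-repressors came to 4.08%, acetyltransferases to 6.45% and mTOR and S6 kinase to 6.25%, and in the top 5000 (all genes 4.28%) the last came to 4.17%. These 3 lists, above it otherwise, then lay below. Unknown depth limits any statement that a peak is missing from a list.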
